A study of Homo sapiens with 6 samples.

Results

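Chemokines are small secreted proteins that draw white blood cells along a concentration gradient by binding G protein-coupled receptors on those cells. They also bind sulfated glycosaminoglycans, which hold them near the cell that made them. Airway epithelium makes several of them, and transcription of many is driven by NF-kB and AP-1 after injury or cytokine exposure. The 10 genes described here, of 62703 in the deposited count table, are chemokine genes known from epithelium: CCL2, CCL20, CCL28, CXCL1, CXCL2, CXCL3, CXCL5, CXCL8, CXCL16 and CX3CL1. They were taken as the rows of the table whose Ensembl gene carries one of these symbols, and each symbol matched 1 row.

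The cells were A549, a long-established line from a human lung adenocarcinoma, kept in serum-containing DMEM/F12 medium and grown in a hydrogel named AlgLung or in one named S-AlgLung. Total RNA gave 3 libraries for each hydrogel. The series is about matrix sulfation in tumors; the labels do not say what the hydrogels contain, how long cells stayed in them, or whether replicates were separate cultures. All 6 libraries come from this 1 line, and nothing but the hydrogel differs between the labels of the groups. P-values below therefore reflect no more than how these libraries varied, which could be technical variation. The comparison asks how expression in the cells differed between the hydrogels.

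Libraries held 22978408 to 26495444 counts. Values per library are CPM, the counts of a gene scaled to a common library size after TMM adjustment, and a gene was called when its adjusted p in edgeR was under 0.05. S-AlgLung replicate 3 stood apart: on the second principal component (28.9% of the variance) it lay at 49.2, against -20.3 and -33.4 for the other S-AlgLung libraries and -19.2 to 21.8 in AlgLung. Its share of counts from MALAT1 and NEAT1, RNAs retained in the nucleus, was 0.0264%, against 0.00398% to 0.00736% elsewhere. Results that rest on this library are given with and without it, and the part of RNA quality in them was not tested. Of 6 epithelial and A549 marker genes, all were detected in every library, at a summed 14563 to 18808 CPM in AlgLung and 9633 to 18197 CPM in S-AlgLung. The sum was lowest in S-AlgLung replicate 3, where KRT8 and KRT18 stood at 2801 and 1326 CPM. EPCAM, at 1.53 to 5.40 CPM, was higher in all S-AlgLung libraries than in all AlgLung libraries, as were 10.4% of tested genes. Its log2 fold change was 0.97 (edgeR adjusted p = 0.073), and none of the 6 was called. Of 6 leukocyte markers, 5 stayed under 1 CPM in each library (PTPRC had 5 counts in all), and the other one, CD14, was at 30.3 to 69.7 CPM and called higher in S-AlgLung (log2 fold change 0.85, edgeR adjusted p = 0.0225). Of 6 fibroblast and 5 endothelial markers, 2 of each could be tested and none was called. COL1A1 had 440 counts in all, THY1 206, PECAM1 274 and CDH5 177. PECAM1 was higher in all S-AlgLung libraries than in all AlgLung libraries, as were 10.4% of tested genes (log2 fold change 0.79, edgeR adjusted p = 0.228). Among the markers not tested, DCN had 1 count in all and ERG 0.

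Among these chemokine genes, CCL2 was the only one called with all libraries, at 2.72-fold higher in S-AlgLung. A gene that was not called is not thereby shown to be unchanged. Of the 10 genes, 8 had enough counts to test. The 7 others tested (CXCL1, CXCL2, CXCL3, CXCL5, CXCL8, CXCL16 and CX3CL1) were not called, with log2 fold changes of -0.16 to 0.68. CCL20 and CCL28 had 7 and 48 counts in all and were not tested. Thus 1 of 8 was called higher, beside 3.15% of the 18544 genes tested in the whole table (584 genes), and 0 of 8 was called lower, beside 1.99% (369 genes), or 5.14% for either direction. At an unadjusted p under 0.05, edgeR gave the same 1 higher and 0 lower, and so did adjusted p-values of DESeq2's Wald test. DESeq2 called 594 genes higher and 399 lower over the whole table. The share of all tested genes at an unadjusted p under 0.05 was not counted, so such counts have no background here or for the lists below. The split over all genes was 333 higher and 335 lower with scaling by total counts alone, which moved the median gene by -0.10 on the log2 scale; CCL2 was still called at 1.36. The median log2 fold change of the 8 tested chemokine genes was 0.20, against 0.03 over all tested genes. In bulk RNA, fewer cells making a transcript and less transcript per cell cannot be told apart.

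**Figure D1:**
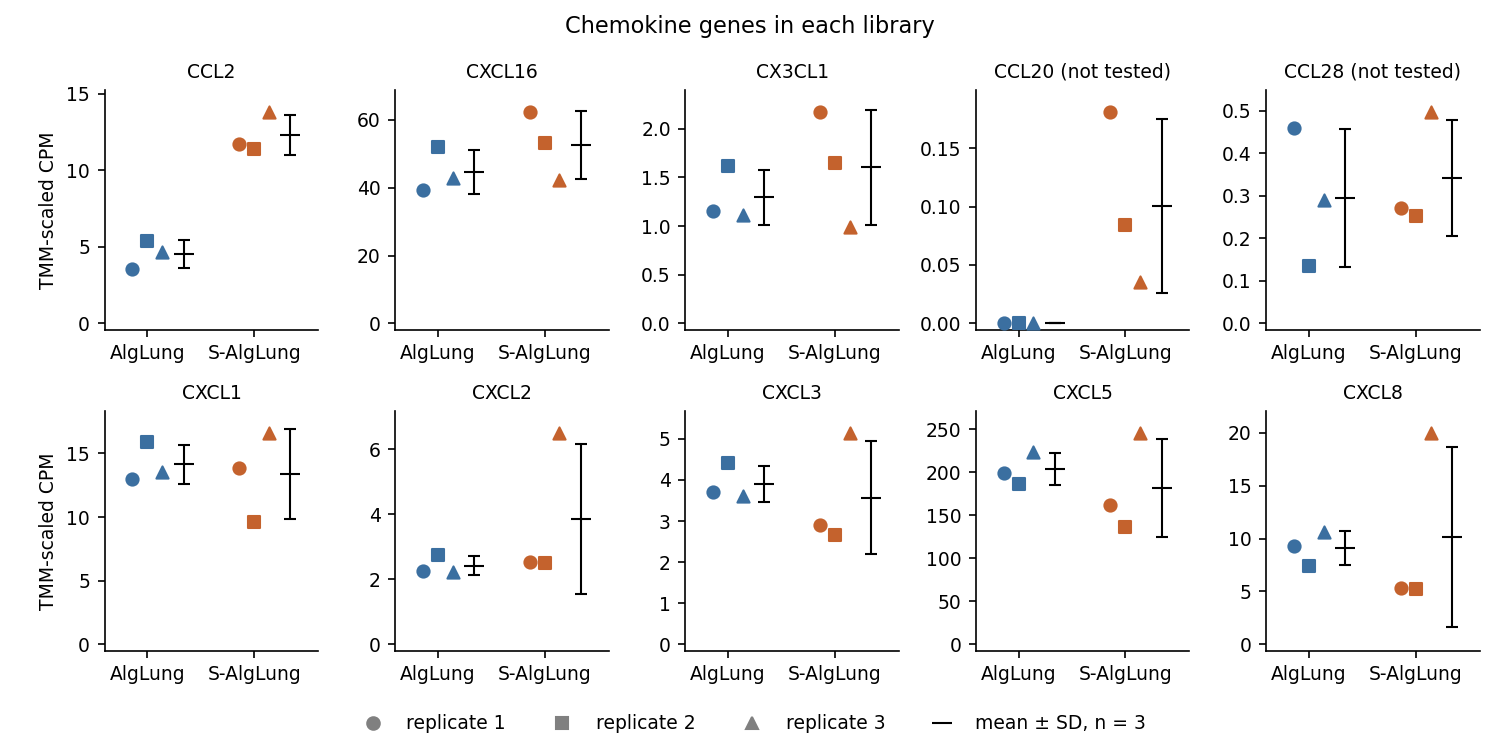
TMM-scaled CPM of the 10 chemokine genes in each library of AlgLung (blue) and S-AlgLung (orange); marker shapes give the replicate, and bars the mean ± SD of 3 libraries. CCL2 lies between 3.56 and 5.40 CPM in AlgLung and between 11.4 and 13.8 CPM in S-AlgLung, while in all 5 CXC panels of the lower row S-AlgLung replicate 3 is the highest point.

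CCL2, also called MCP-1, recruits monocytes and memory T cells through the receptor CCR2. The gene (ENSG00000108691) lies on chromosome 17 from 34255274 to 34257208 (GRCh38), on the plus strand. It stood at 3.56, 5.40 and 4.64 CPM in AlgLung replicates 1 to 3 and at 11.7, 11.4 and 13.8 CPM in S-AlgLung replicates 1 to 3. All 3 S-AlgLung libraries were above all 3 AlgLung libraries, a separation that 10.4% of tested genes showed in this direction, 8.05% in the other and 18.4% in either. It was found for 1 of the 8 tested members, and the groups of the 7 others overlapped. The means were 4.53 ± 0.920 and 12.3 ± 1.32 CPM (SD, n = 3). On the log2 scale CCL2 was higher by 1.44 (SE 0.24, 95% interval 0.95 to 1.94, edgeR adjusted p = 0.000200). Without S-AlgLung replicate 3 it was 1.32 (edgeR adjusted p = 2.07e-06). Leaving out each of the 6 libraries in turn gave 1.25 to 1.58, and CCL2 was called in each of these fits. No other gene in the table overlaps its exons.

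The ligands of the neutrophil receptors CXCR1 and CXCR2 sit together in the genome. CXCL8, CXCL1, CXCL5, CXCL3 and CXCL2 occur in this order within 359 kb of chromosome 4, from 73740519 to 74099196 (GRCh38). CXCL8, or interleukin-8, binds both receptors, whereas CXCL1, CXCL2, CXCL3 and CXCL5 act mainly through CXCR2. Sequences around their RefSeq starts are shown because all 5 genes share a promoter element. All 5 were also highest in the same library, as described next, and a link between element and pattern was not tested. The RefSeq promoters (GRCh38.p14, 250 bases before to 50 after the start) matched 7 of the 10 chemokine genes. CCL2, CXCL16 and CX3CL1 had no entry, so their promoters were not searched. In the matched promoters, all 5 cluster genes hold the NF-kB core GGAANTTCC, searched on both strands. It begins 77 to 91 bases before the RefSeq start, from which all distances here are counted. The RefSeq start lies 50 bases downstream of the 5′ end that the count table gives CXCL8, 118 bases downstream for CXCL3, 1 base for CXCL2 and 0 bases for CXCL1 and CXCL5. The CXCL3 match thus falls inside the gene as the count table draws it, and the others fall before it. CCL20 and CCL28 do not hold it, and 0.965% of 35116 promoters do. The 30 bases around each match are given 5′ to 3′ on the strand of the gene, with the core in capitals.
CXCL1 (chr4:73869304-73869333, plus strand): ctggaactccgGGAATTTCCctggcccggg
CXCL2 (chr4:74099254-74099283, minus strand): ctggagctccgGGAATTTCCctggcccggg
CXCL3 (chr4:74038749-74038778, minus strand): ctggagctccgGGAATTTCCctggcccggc
CXCL5 (chr4:73998749-73998778, minus strand): catgagttcagGGAATTTCCccagcatccc
CXCL8 (chr4:73740467-73740496, plus strand): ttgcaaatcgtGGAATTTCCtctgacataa

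The core itself reads the same in all 5. Its flanks nearly coincide in CXCL1, CXCL2 and CXCL3 and differ in CXCL5 and CXCL8. Over the 140 bases before the RefSeq start, CXCL1 was 91.5% identical to CXCL2 and 90.7% to CXCL3, but 51.6% to CXCL5 and 40.9% to CXCL8 (global alignment). The 10-letter NF-kB consensus, which can overlap the core, was found in 6 of the 7 promoters, against 14.0% of all promoters. CXCL8 alone of the 7 also holds the AP-1 heptamer TGANTCA, which 7.71% of promoters hold; it begins 137 bases before the RefSeq start, upstream of the NF-kB core. The stretch of CXCL8 from 140 to 51 bases before the RefSeq start, which ends at the 5′ end of the gene in the count table, has both matches in capitals. This stretch and the 140 bases before the start of CXCL5, the most abundant member, show the difference. A match is a description of the letters and no evidence of binding.
CXCL8 (chr4:73740429-73740518, plus strand): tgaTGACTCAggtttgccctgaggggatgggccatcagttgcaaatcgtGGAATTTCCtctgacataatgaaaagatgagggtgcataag
CXCL5 (chr4:73998678-73998817, minus strand): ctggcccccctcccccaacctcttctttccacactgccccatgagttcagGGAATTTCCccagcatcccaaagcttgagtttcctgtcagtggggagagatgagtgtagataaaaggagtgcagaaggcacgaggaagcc

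Across the libraries, the 5 cluster genes all had their highest value in S-AlgLung replicate 3. CXCL8 (ENSG00000169429) stood at 9.28, 7.42 and 10.6 CPM in AlgLung and at 5.30, 5.24 and 20.0 CPM in S-AlgLung replicates 1 to 3. S-AlgLung replicates 1 and 2 lay below every AlgLung library, and replicate 3 above all of them, so the groups overlapped. With all libraries its log2 fold change was 0.17 (SE 0.34, 95% interval -0.52 to 0.86, edgeR adjusted p = 0.900). Without S-AlgLung replicate 3 it was -0.82 (95% interval -1.30 to -0.34), and CXCL8 was then called lower (edgeR adjusted p = 0.0143), beside 3.53% of the genes tested in that fit. CCL2 was the only member called higher there, beside 4.75% of genes, so 2 of 8 members were called, beside 8.28%. The direction of CXCL8 therefore turned on 1 library. For CXCL8, that library was 3.80 times the mean of the other S-AlgLung libraries, and those were at 0.579 of the AlgLung mean.

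CXCL5 (ENSG00000163735, chromosome 4, 73995642 to 73998677), an attractant also known as ENA-78, was the most abundant member, with 199.6, 187 and 224 CPM in AlgLung and 162, 136 and 246 CPM in S-AlgLung. Replicates 1 and 2 of S-AlgLung were again below all AlgLung libraries and replicate 3 above them. The log2 fold change was -0.16 (95% interval -0.68 to 0.36, edgeR adjusted p = 0.864) and, without S-AlgLung replicate 3, -0.48 (95% interval -0.91 to -0.04, edgeR adjusted p = 0.185). A gene on the opposite strand, ENSG00000287037, overlaps CXCL5 and had 0.294 times its counts. Whether counting used strand is not stated. The genes MIF and MIF-AS1, which overlap on opposite strands, had 83602 and 83599 counts, so reads of the CXCL5 pair may be mixed.

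CXCL3 had its S-AlgLung libraries in the same places relative to AlgLung, with 3.72, 4.41 and 3.60 CPM in AlgLung and 2.90, 2.66 and 5.15 CPM in S-AlgLung. Its log2 fold change was -0.12 (95% interval -0.71 to 0.47) with all libraries and -0.52 (95% interval -1.09 to 0.04) without S-AlgLung replicate 3, and neither was called (edgeR adjusted p = 0.922 and 0.293). The pattern of CXCL8, CXCL5 and CXCL3, with S-AlgLung replicates 1 and 2 under and replicate 3 over every other library, was shown by 3 of the 8 tested members and by 4.25% of all tested genes. PF4, a platelet chemokine gene between CXCL1 and CXCL5, had it too, at 0.843, 0.719 and 0.745 CPM in AlgLung and 0.408, 0.464 and 0.924 CPM in S-AlgLung. Its log2 fold change was -0.34 and not called (edgeR adjusted p = 0.823). PF4 shares reads with an overlapping gene on the same strand (102 counts for PF4 and 128 for the other gene).

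CXCL2 differed from these in its lower values. It stood at 2.26, 2.74 and 2.24 CPM in AlgLung and at 2.54, 2.49 and 6.50 CPM in S-AlgLung. Replicates 1 and 2 of S-AlgLung lay within the AlgLung range, and replicate 3 was 2.59 times their mean. The log2 fold change of 0.68 (95% interval -0.00 to 1.37, edgeR adjusted p = 0.335) was 0.03 without that library. CXCL1 stood at 13.0, 15.9 and 13.6 CPM in AlgLung and 13.8, 9.63 and 16.6 CPM in S-AlgLung. Its groups overlapped, and its log2 fold change was -0.08 (95% interval -0.55 to 0.39, edgeR adjusted p = 0.937), or -0.31 without S-AlgLung replicate 3. CXCL1, CXCL2 and CXCL3 are close copies: of the distinct 50-base stretches in their GENCODE release 29 transcripts, 4.81%, 12.5% and 6.01% also occur in another of the 3. At 100 bases CXCL2 and CXCL3 shared 5.00% and 3.27% of theirs, and CXCL1 shared 0. Reads from shared stretches cannot be assigned to one copy.

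**Figure D2:**
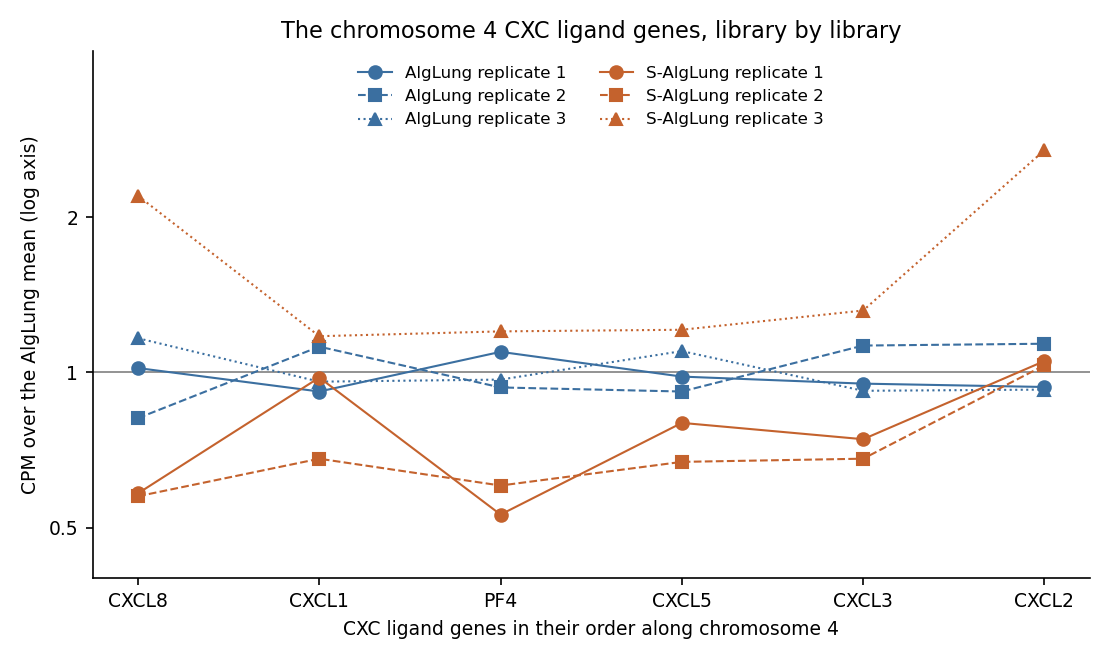
CPM of the 6 tested CXC ligand genes of chromosome 4, divided by the AlgLung mean (log axis), in their order along the chromosome. Each line is 1 library. CXCL6 and PPBP, with 2 and 26 counts in all, were not tested and are not drawn. S-AlgLung replicate 3 was not the highest library for either. S-AlgLung replicate 3 is the top line at all 6 genes, reaching 2.20 at CXCL8 and 2.69 at CXCL2, while S-AlgLung replicates 1 and 2 lie lowest at CXCL8, PF4, CXCL5 and CXCL3.

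The highest value in S-AlgLung replicate 3 was common beyond the chemokines. It was found in 6 of the 8 tested members (the 5 cluster genes and CCL2) and in 29% of all tested genes. A level at least 1.5 times the mean of the other S-AlgLung libraries was found in 4 of the 8 (CXCL2, CXCL3, CXCL5 and CXCL8) and in 16% of all tested genes. The 5 genes outside the members whose log2 CPM over the 6 libraries was most like that of CXCL5 were SDHD, MEMO1, TAF5L, VPS37A and MAP3K13, with Pearson correlations of 0.985 to 0.992, given as a description of 6 points. All 5 had their highest value in the same library and none was called (edgeR adjusted p of 0.724 to 0.956).

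The membrane-anchored chemokines ran the other way across the S-AlgLung libraries. CXCL16 and CX3CL1 are made with a transmembrane stalk, act as adhesion molecules for cells with CXCR6 and CX3CR1, and are released by the sheddases ADAM10 and ADAM17. CXCL16 (ENSG00000161921, chromosome 17, 4733533 to 4739928) stood at 39.3, 51.9 and 43.0 CPM in AlgLung and at 62.4, 53.2 and 42.2 CPM in S-AlgLung. S-AlgLung replicates 1 and 2 were above all AlgLung libraries and replicate 3 was within their range. Its log2 fold change was 0.23 (95% interval -0.22 to 0.69, edgeR adjusted p = 0.726), or 0.34 without S-AlgLung replicate 3. MED11, on the opposite strand, overlaps CXCL16 and had 0.572 times its counts.

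CX3CL1, or fractalkine (chromosome 16, 57372477 to 57385044), had 27 to 48 counts per library. It stood at 1.15, 1.62 and 1.12 CPM in AlgLung and at 2.18, 1.65 and 0.995 CPM in S-AlgLung, with replicate 3 the lowest of all 6 libraries. The log2 fold change was 0.30 (95% interval -0.46 to 1.06, edgeR adjusted p = 0.805) and 0.53 (-0.18 to 1.24) without that library. Both genes thus lay at their lowest S-AlgLung value in the library in which the 5 cluster genes lay at their highest. The share of all tested genes with their lowest S-AlgLung value in that library was not counted. The pattern is therefore not shown to be particular to these genes.

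**Figure D3:**
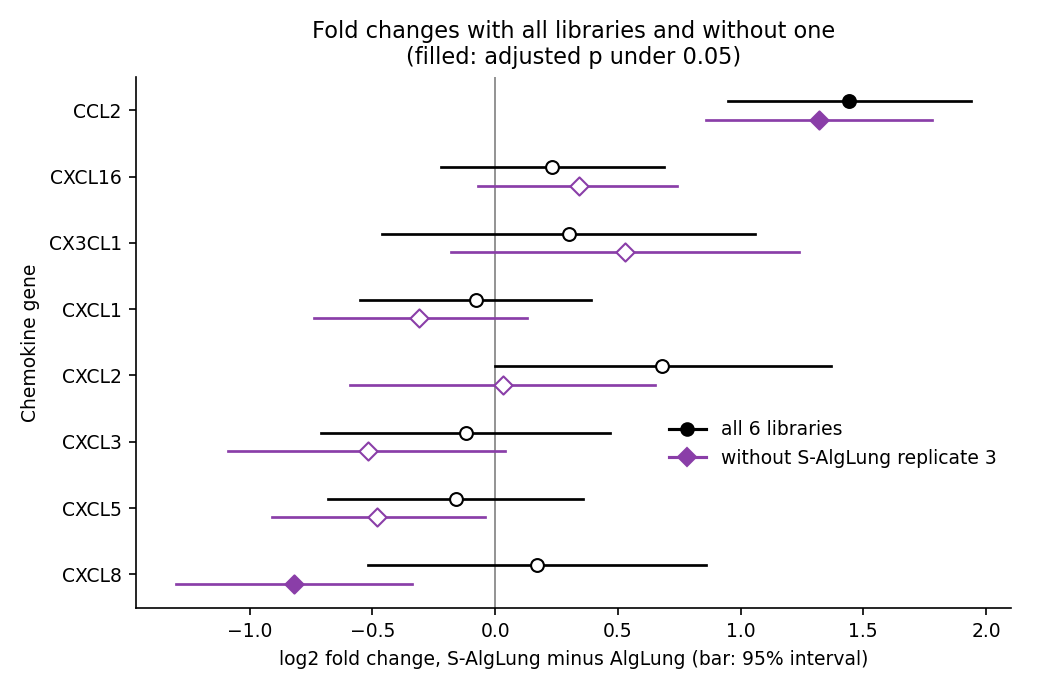
Log2 fold changes of the 8 tested chemokine genes with 95% intervals, with all 6 libraries (circles) and without S-AlgLung replicate 3 (diamonds); filled symbols have an adjusted p under 0.05. CCL2 is called in both fits (1.44 and 1.32), and CXCL8 moves from 0.17 to -0.82.

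The mucosal CC chemokines were near the limit of detection. CCL20, the ligand of CCR6 on dendritic and Th17 cells, had 0 counts in each AlgLung library and 4, 2 and 1 in S-AlgLung replicates 1 to 3. A count of 0 allows up to 3 counts, or 0.115 to 0.135 CPM in the AlgLung libraries. This limit is above the mean level of CCL20 in S-AlgLung, so it gives no least fold difference. It was set for each library alone and not for the AlgLung libraries together. The groups of CCL20 did not overlap, on these few counts. With no low-count filter the log2 fold change was 4.32 (SE 1.91), and CCL20 was not called (edgeR adjusted p = 0.305). CCL28, which binds CCR10 and CCR3 at mucosal surfaces, had 12, 3 and 7 counts in AlgLung and 6, 6 and 14 in S-AlgLung. The groups overlapped, at 0.135 to 0.460 and 0.253 to 0.497 CPM.

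Per kilobase of exon, the level of the members spanned a wide range, from 79.0 CPM per kb for CXCL5 to 0.0315 for CCL20 (means of 6 libraries). CXCL16 followed at 17.4 and CXCL1 at 10.1. Every library of CXCL5 was above every library of CXCL16, and every library of CXCL16 above every library of CXCL1. CCL2 (4.35), CXCL8 (3.72), CXCL2 (2.24) and CXCL3 (1.69) came next, and neighbours in this stretch, from CXCL1 down to CXCL3, overlapped in their ranges. CX3CL1 (0.243) was separate from CXCL3 above and CCL28 (0.0703) below, and CCL28 overlapped CCL20. CCL2 moved in this order between hydrogels. In AlgLung it stood at 2.34 ± 0.475 CPM per kb, under CXCL8 (3.52 ± 0.617), and in S-AlgLung at 6.36 ± 0.683, over CXCL8 (3.93 ± 3.29; SD, n = 3). Without S-AlgLung replicate 3 the S-AlgLung means were 5.97 for CCL2 and 2.04 for CXCL8, and in that library the order was the other way, with 7.14 for CCL2 and 7.73 for CXCL8.

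Other chemokine ligands were scarce. Of 28 listed, 14 had 0 counts in all libraries and 2 could be tested, PF4 and MIF, a chemokine-like cytokine. MIF had 334 to 723 CPM and a log2 fold change of 0.05 (edgeR adjusted p = 0.976), but nearly all of its counts were also counted for overlapping genes. None of the 2 was called by edgeR or DESeq2, and none had an unadjusted p under 0.05. Chosen after their values were seen, 3 of the 26 ligands under the filter had groups that did not overlap. The share among tested genes was 18.4%, not a like background, since 14 listed ligands had 0 counts in all libraries. The 3 are given as counts and were not tested in the main fit. On these few counts, the fit with no low-count filter called CXCL17 higher and CCL24 lower. The fit without S-AlgLung replicate 3 called CCL26 lower, where it passed the filter only through AlgLung. CXCL17, a mucosal chemokine, had 0 counts in all AlgLung libraries and 10 in each S-AlgLung library, a mean of 0.410 CPM. This is at least 3.29-fold higher than the 3 counts per library that a 0 allows. The eotaxin genes CCL24 and CCL26, whose products attract eosinophils through CCR3, had 6, 9 and 13 and 10, 5 and 11 counts in AlgLung, against 0, 0 and 3 and 0, 0 and 4 in S-AlgLung.

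Of 21 chemokine receptor and scavenging receptor genes, 6 could be tested, and 1 rose, beside 3.15% of all tested genes. CXCR4, the receptor of CXCL12, had 2, 3 and 7 counts in AlgLung and 32, 38 and 29 in S-AlgLung. The means were 0.167 ± 0.110 and 1.36 ± 0.297 CPM (SD, n = 3), and the groups did not overlap. The log2 fold change was 2.99 (SE 0.51, edgeR adjusted p = 0.000252), and 2.59 to 3.60 with each library left out. CXCR4 passed the low-count filter only through S-AlgLung, where it was high, and was not tested when a mean of at least 1 CPM over all libraries was asked for. Of the other tested receptors, CXCR5, CCR10 and ACKR4 overlap genes with more counts than their own, so their values are uncertain. Of the signalling receptors that bind the members, CXCR2, CXCR6, CCR2 and CCR3 had 0 counts in all libraries, and CXCR1, CCR6 and CX3CR1 had 1, 5 and 6. CCR10, which binds CCL28, had 206 counts and stood at 1.20 to 1.57 CPM, with the overlapping CNTNAP1 at 8.70 times its counts.

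Of 22 NF-kB subunits, kinases and feedback genes, all were tested. Of these, 2 rose and 0 fell, beside 3.15% and 1.99% of all tested genes, and DESeq2 also called 2 and 0. At an unadjusted p under 0.05 edgeR gave 3 higher and 0 lower, for which no background was counted. MAP3K14, the kinase NIK of the alternative NF-kB pathway, rose from 24.7 ± 0.852 to 42.6 ± 5.54 CPM (edgeR adjusted p = 0.0212), but its exons overlap MAP3K14-AS1, an opposite-strand gene with 0.586 times as many counts. NFKBIE, an inhibitor of NF-kB, stood at 9.01, 11.6 and 9.02 CPM in AlgLung and 18.0, 14.9 and 16.7 CPM in S-AlgLung (log2 fold change 0.74, edgeR adjusted p = 0.0458). Both calls were lost without S-AlgLung replicate 1, without any 1 of the AlgLung replicates and with total-count scaling, at log2 fold changes of 0.63 to 0.87. That of NFKBIE was also lost with DESeq2 size factors and with no low-count filter (edgeR adjusted p = 0.0535 and 0.0546). The median of the list was 0.08, against 0.03 over all genes.

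Of 26 inflammatory cytokines and upstream receptors, 14 were tested, and 1 fell and 0 rose, beside 1.99% and 3.15% of all tested genes. DESeq2 called 1 lower and 1 higher, the latter CSF1 (DESeq2 adjusted p = 0.0214), and at an unadjusted p under 0.05 edgeR gave 2 lower and 1 higher. IL18, a cytokine stored in epithelium, stood at 21.2, 23.7 and 24.0 CPM in AlgLung and 12.2, 11.02 and 17.0 CPM in S-AlgLung (log2 fold change -0.78, edgeR adjusted p = 0.0354). Its call was lost when S-AlgLung replicate 1 or 2, or AlgLung replicate 2 or 3, was left out (-0.66 to -0.80), and with total-count scaling (-0.85). Without S-AlgLung replicate 3, IL18 (-1.02) and IL33 (-0.95) were called lower and CSF1 (0.79) higher, and CSF1 was also called with the replicate number as a block (0.70, edgeR adjusted p = 0.0292); IL33 and CSF1 are named after their values were seen. Against 3.15% of all tested genes, 1 of 9 regulators of mRNA decay and stability rose, ZFP36. It encodes tristetraprolin, which binds AU-rich elements and speeds decay of inflammatory mRNAs. It went from 58.3 ± 5.90 to 107 ± 20.0 CPM (log2 fold change 0.87, edgeR adjusted p = 0.0211), a call lost without S-AlgLung replicate 1 or any 1 AlgLung replicate (0.77 to 0.95) and with total-count scaling (0.79).

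Of 13 enzymes that cleave, shed or sulfate chemokines or their receptors, 12 were tested, 1 rose and 1 fell. MMP2, a gelatinase that can truncate CCL and CXCL proteins, fell from 11.8 ± 1.58 to 2.11 ± 0.360 CPM (log2 fold change -2.49, edgeR adjusted p = 2.90e-07). MMP14, its membrane-bound activator, rose from 2.16 ± 0.454 to 4.39 ± 0.599 CPM (log2 fold change 1.03, edgeR adjusted p = 0.0306), a call lost without S-AlgLung replicate 1 or any 1 AlgLung replicate (0.82 to 1.11) and with total-count scaling (0.95). The sheddase genes ADAM10 and ADAM17, named for their role with CXCL16 and CX3CL1 after their values were seen, were at log2 fold changes of -0.30 and -0.11 and not called (edgeR adjusted p = 0.643 and 0.896). IAH1, on the opposite strand, overlaps ADAM17 (6650 and 6242 counts). Over all 6 lists, 5 of 65 tested genes were called higher and 2 lower, beside 3.15% and 1.99% of all tested genes.

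**Figure D4:**
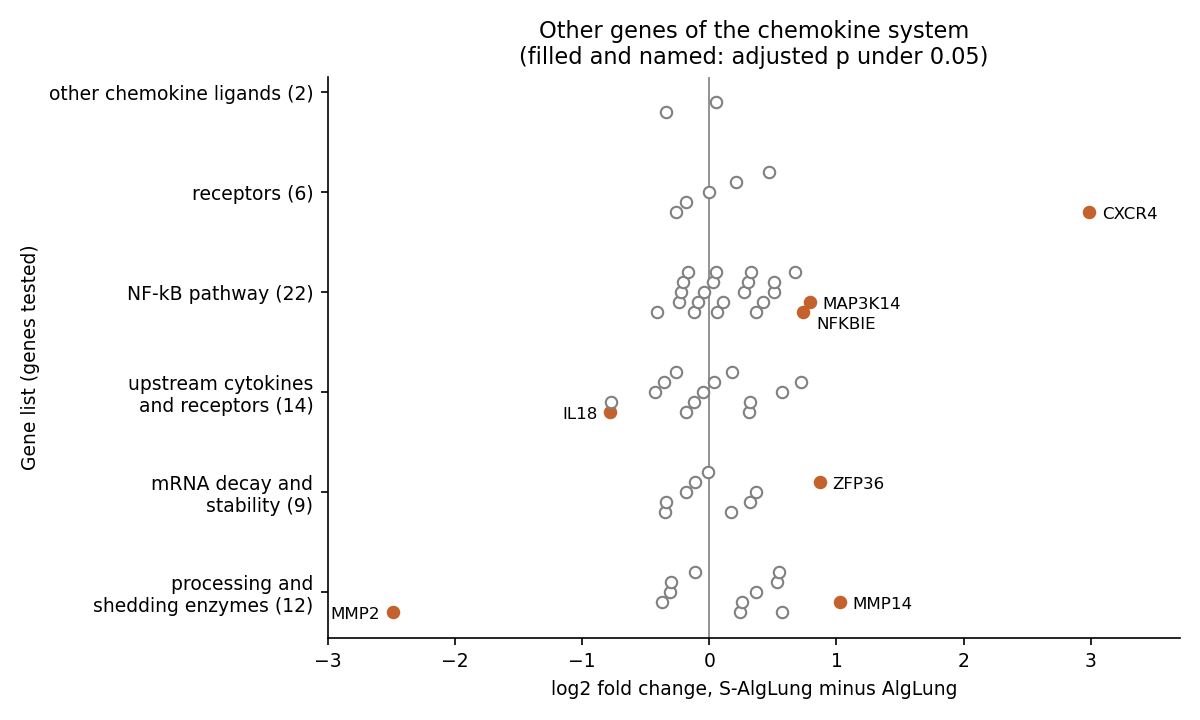
Log2 fold changes (S-AlgLung minus AlgLung) of the 65 tested genes in 6 lists of the chemokine system; each point is 1 gene, and filled, named points have an adjusted p under 0.05. CXCR4 lies at 2.99 and MMP2 at -2.49, and the other called genes between -0.78 and 1.03.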

How the data were processed

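The submitters' processing notes name STAR 2.7.3a, featureCounts and the GRCh38 build; further settings, strand included, are not given here. Whole-number counts, not normalized, were deposited for 62703 genes. AlgLung replicate 1 had 2 columns, with 0 genes differing between them, and was counted once. Gene lengths are those of the deposited table.

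The 10 members and the gene lists were chosen with earlier results of these data known. After filterByExpr (minimum count 10), 18544 genes entered edgeR 4.0.16 (R 4.3.3; TMM, quasi-likelihood test, all 6 libraries, no block), with Benjamini-Hochberg adjustment across them. Each standard error was taken as the absolute log2 fold change over the root of its F value. Named genes were all members and, from each list, up to 4 called genes with the smallest p, or 2 where none was called, and the 5 genes most like the most abundant member. The fit was tested on simulated data. Total counts of 22978408 to 26495444 set the precision; limits for counts of 0 cover counting error only. Promoters came from RefSeq (GRCh38.p14); a table of protein sequences was not used here.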

Additional observations from a re-analysis of the deposited data

How the results depend on the processing

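CCL2 kept its direction and stayed called with the replicate block, with DESeq2 1.42.0 or its size factors, with total counts, with genes kept from a mean of 1 CPM or all kept, and with each library left out. Scaling by total counts gave 333 genes called higher over the whole table, and 1 higher and 1 lower among the listed genes. Leaving out each library in turn gave 289 to 891 genes higher and 244 to 662 lower, 0 to 1 members lower (CXCL8), and 1 to 7 listed genes higher and 1 to 4 lower. Fewer samples enter those fits. Log2 fold changes then ran from -0.82 to 0.48 for CXCL8, -0.31 to 0.10 for CXCL1, -0.52 to 0.05 for CXCL3, -0.48 to 0.00 for CXCL5 and -0.12 to 0.30 for MIF, and changed sign in each. MIF was also at -0.09 with total counts. With the replicate number as a block, CXCL8 was at -0.10 and MIF at -0.02, and 800 genes were called higher and 500 lower. Same-numbered deviations correlated at 0.0721, 0.285 and 0.0413, against -0.338 to 0.208 for different numbers. Not every library correlated best with its own number, so whether the numbers pair the libraries is not settled. The causes were not tested. CCL20 and CCL28 gave too few counts for a value in most settings, and members under 50 counts in all are limited by depth.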

Other observations

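Feedback genes of NF-kB are described here after their values were seen. Of 22 tested genes of the NF-kB list, 6 had their highest value in S-AlgLung replicate 3, a share close to the 29% of all tested genes, and 1 had S-AlgLung replicates 1 and 2 below every AlgLung library (16.3% of all tested genes). In S-AlgLung replicate 3, 5 of the 22 (NFKBIA, NFKBIZ, TNFAIP3, TRAF1 and TNFAIP2) were at least 1.5 times the mean of the other S-AlgLung libraries, against 16% of all tested genes. NFKBIZ, an atypical inhibitor that acts in the nucleus, stood at 7.93, 6.03 and 6.42 CPM in AlgLung and at 6.39, 5.19 and 20.8 CPM in S-AlgLung. NFKBIA, the inhibitor IkB-alpha, stood at 59.3, 74.7 and 72.2 CPM in AlgLung and at 70.5, 74.7 and 129.7 CPM in S-AlgLung. None of the 5 was called with all libraries (edgeR adjusted p of 0.348 to 0.981). Other genes of the list were lower in S-AlgLung replicate 3 than in the other S-AlgLung libraries, among them RELB and BCL3. NFKB2 stood at 157, 158 and 111 CPM in S-AlgLung replicates 1 to 3, and RELA at 189, 175 and 116 CPM. NFKBIZ overlaps NXPE3 on the same strand, which had 4.10 times its counts.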
